A study of Mus musculus with 15 samples.

Results

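The genes described here are 41 mouse genes that encode proteins of the lysosome. They were listed by name, with earlier results of these data known, and they fall into 4 roles. There are 19 hydrolases, 4 soluble lysosomal proteins grouped here as cofactors (Psap, Gm2a, Npc2 and Grn), 10 membrane proteins and 8 components of the vacuolar proton pump (V-ATPase). All 41 were found by their NCBI Gene IDs among the 36528 genes of the deposited tables, and all 41 passed the filter on low counts that left 13994 genes for testing.

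RNA was sequenced from green fluorescent cells of the mouse cortex, sorted for a reporter expressed from the Cx3cr1 locus, which microglia use at a high level. The animals were PS2APP mice (9 samples), a model of Alzheimer's disease with transgenes for human presenilin 2 and amyloid precursor protein, and non-transgenic wild type mice (non-Tg, 6 samples). At 15 months of age there were 5 PS2APP and 4 non-Tg samples, and at 14 months 4 PS2APP and 2 non-Tg samples. Both genotypes carried the Cx3cr1 reporter. The labels do not name the promoters of the transgenes or the sex of the mice. They also do not tie each sample to its own mouse, so a p-value here reflects sample-to-sample spread, which may be technical.

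The lysosome is the acidic compartment in which a cell breaks down what it has taken up or set aside for disposal. Its hydrolases each cut a particular bond in proteins, glycans or lipids, and small soluble proteins present some lipid substrates to them. Heavily glycosylated membrane proteins line the compartment, transporters carry the products out, and the V-ATPase pumps in the protons that keep the enzymes active. Microglia, the resident phagocytes of the brain, depend on this compartment to digest synaptic material, dying cells and protein aggregates such as amyloid.

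Total reads per sample ranged from 3664742 to 8455237. The 14 microglial markers summed to between 23500 and 34183 CPM (counts scaled to the TMM-adjusted library size) in PS2APP and to between 29260 and 37735 CPM in non-Tg samples. The 12 neuronal markers summed to between 75.7 and 263 CPM in PS2APP and to between 267 and 561 CPM in non-Tg samples, without overlap, and 2 of the 10 tested were called lower in PS2APP. The 10 astrocyte markers summed to a median of 491 CPM in PS2APP and 719 CPM in non-Tg samples, with 1 of 9 tested called lower and 1 higher. Choroid plexus markers summed to between 5.59 and 32.2 CPM in PS2APP and to between 3.31 and 414 CPM in non-Tg samples, and both of those tested were called lower. The part of the astrocyte and choroid plexus markers in the lysosomal values was not tested. Some libraries stood apart. PS2APP 1 and 4 and non-Tg 9 and 13 held between 4582 and 18508 CPM of 14 immediate early genes, against 340 to 552 CPM in the other libraries. PS2APP 14 and non-Tg 12 and 13 held 16.6 to 46.8 CPM of Xist, against 3659 CPM or more elsewhere. In bulk RNA of this kind, fewer cells of a type and less RNA per cell cannot be told apart.

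The 41 genes differed in level by several orders of magnitude, as the plot of RPKM by role shows. Levels between genes were compared on the RPKM scale, which divides the reads by the length of the gene model. Laptm5, a lysosomal membrane protein of haematopoietic-lineage cells, was highest, with medians of 261 RPKM in PS2APP (239 to 435) and 324 RPKM in non-Tg samples (273 to 413). Lgmn, the asparagine-specific protease legumain, came next at 239 RPKM in PS2APP (206 to 299) and 300.2 RPKM in non-Tg samples (257 to 325), and its range overlapped that of Laptm5 in both groups.

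A second tier held the progranulin gene Grn, the major lysosomal membrane glycoprotein Lamp1 and the phagocyte glycoprotein Cd68. Their PS2APP medians were 147, 150.2 and 177 RPKM, and their non-Tg medians 150.2, 138 and 138 RPKM, with overlapping ranges in each group. Among the V-ATPase genes the accessory subunit gene Atp6ap1 was highest, at 43.1 RPKM in PS2APP and 55.9 RPKM in non-Tg samples. The catalytic subunit gene Atp6v1a stood at 9.08 RPKM in PS2APP and 5.04 RPKM in non-Tg samples.

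At the low end, the sulfatase genes Arsa, Galns and Sgsh, the α-galactosidase gene Gla, and the V-ATPase genes Atp6v0c and Atp6v0d2 had medians under 2 RPKM in both groups. Atp6v0c encodes the proteolipid that forms the rotating ring of the pump. Its medians were 0.460 RPKM in PS2APP and 0.741 RPKM in non-Tg samples, and the RefSeq annotation names 2 pseudogenes of it. The deposited counts hold only uniquely aligned reads, so its level is uncertain. Of the 41 genes, 15 overlap another annotated gene, Hexa and Lamp2 among them, and whether the counting used strand is not stated.

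**Figure D1:**
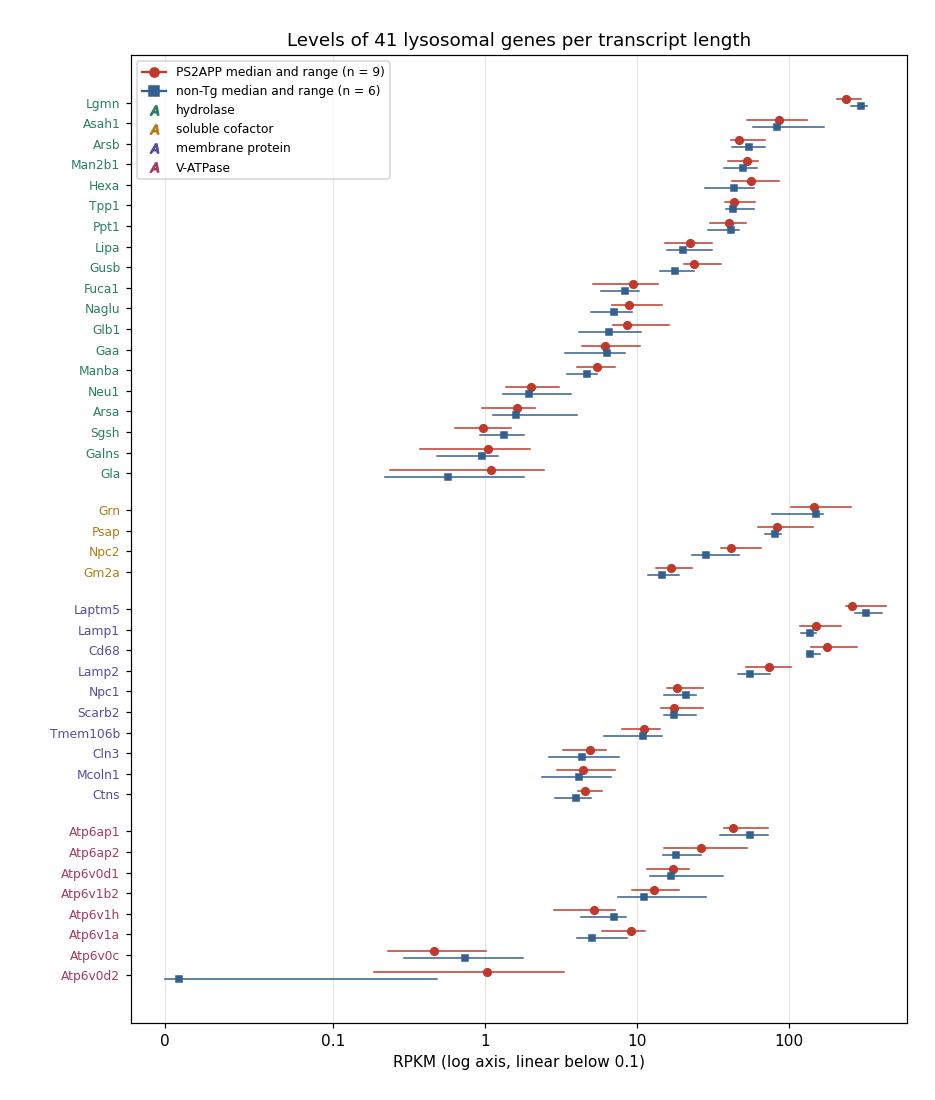
Median RPKM (log axis, linear below 0.1) of the 41 genes by role, with the lowest to highest sample as a line, for PS2APP (circles, n = 9) and non-Tg (squares, n = 6). The ranges of the groups overlap for every gene, and the Atp6v0d2 medians of 1.03 RPKM in PS2APP and 0.00833 RPKM in non-Tg lie farthest apart.

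Many lysosomal genes carry in their promoters an E-box, CACGTG, in an extended form that the transcription factors TFEB and TFE3 bind. The sequences are shown because the RefSeq promoter windows (GRCm38.p6, 250 bases before to 50 after each start) let this shared feature of the genes be read directly. Windows were present for 35 of the 41 genes, the exceptions being Asah1, Galns, Npc1, Atp6v0d2, Atp6v1b2 and Atp6v1h. On either strand, CACGTG occurred in 12 of the 35 genes (34.3%), against 8.09% of the 27025 genes with a window. The longer GTCACGTG, which contains it, occurred in 10 of the 35 (28.6%), against 2.55% of all. For each of the 10 genes, 30 bases of its own strand follow, 5′ to 3′, with GTCACGTG or its reverse complement CACGTGAC in capitals.
Arsa (chr15:89477424-89477453, - strand): ttcaactcagtGTCACGTGttgtctgctcc
Atp6v0d1 (chr8:105566051-105566080, - strand): gccctactgcgGTCACGTGagacgcggtgc
Cln3 (chr7:126583341-126583370, - strand): tcacgggtactGTCACGTGacccccaacct
Gla (chrX:134601183-134601212, - strand): gtgagatctcgGTCACGTGagcaactctcg
Glb1 (chr9:114401017-114401046, + strand): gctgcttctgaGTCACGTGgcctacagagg
Lamp1 (chr8:13159122-13159151, + strand): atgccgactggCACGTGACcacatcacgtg
Lgmn (chr12:102439125-102439154, - strand): atggaatgtctGTCACGTGgtccattttat
Mcoln1 (chr8:3500435-3500464, + strand): gggtcgcgcttGTCACGTGttcagttcagg
Naglu (chr11:101070008-101070037, + strand): ccaaccttcagGTCACGTGgcccgaggtcg
Sgsh (chr11:119355521-119355550, - strand): ggcctgccgtgCACGTGACcgtggggagcg

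Lysosomal genes of all roles but the soluble cofactors were among these 10. The first capital lay between 196 bases before the start in Gla and 5 bases before it in Atp6v0d1. The match is a description of the letters and not of a bound site, and a gene without it lacks only these letters in this window. The 10 genes with GTCACGTG had a median log2 fold change, PS2APP over non-Tg, of 0.14, with 6 of 10 positive. The 25 genes whose windows lacked it had a median of 0.15, with 18 of 25 positive.

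Most lysosomal genes of PS2APP microglia stood within 1.5-fold of their non-Tg level. In the edgeR quasi-likelihood fit of all genes, with age as a covariate and Benjamini-Hochberg adjustment over the 13994 genes, 0 of the 41 were called at an adjusted p under 0.05. Over all genes 1.18% were called, 0.958% as higher and 0.222% as lower in PS2APP. DESeq2 called 1 of the 41, Atp6v0d2, limma-voom with quality weights called 1, Npc2, and limma-trend on RPKM called 0. Over the 13994 genes, DESeq2 called 388, limma-voom 200 and limma-trend 137. Whether 1 of 41 exceeds such a background was left untested. At an unadjusted p under 0.05 there were 12 of the 41, of which 10 were higher and 2 lower in PS2APP, against 11.7% of all genes (5.72% higher and 5.96% lower).

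The 41 genes had a median log2 fold change of 0.13, and 27 of them were positive. Over all genes tested the median was -0.02 and 47.3% were positive. In 35 of the 41 the log2 fold change lay between -0.5 and 0.5. The groups overlapped in all 41 genes, while 0.636% of all genes tested showed no overlap.

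By role, the hydrolases had a median log2 fold change of 0.11, with 12 of 19 positive and 5 at an unadjusted p under 0.05. The 4 soluble cofactors were all positive, with a median of 0.16 and 1 at that threshold. The membrane proteins had a median of 0.14, with 7 of 10 positive and 2 at the threshold. The V-ATPase genes had a median of -0.06, with 4 of 8 positive and 4 at the threshold, and they spread the widest, between -0.83 and 3.45. Both ends were genes with few reads: Atp6v0c (116 in PS2APP, 148 in non-Tg) and Atp6v0d2 (559 in PS2APP, 40 in non-Tg). The remaining V-ATPase genes lay between -0.48 (Atp6v1h) and 0.60 (Atp6ap2). The hydrolases lay between -0.38 (Sgsh) and 0.81 (Gla). Gla also had few reads (657 in PS2APP, 307 in non-Tg), and the next highest hydrolase was Hexa at 0.52. Differences between the roles were not tested.

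These medians moved with the libraries included. With PS2APP 1 and 4 and non-Tg 9 and 13 left out for their immediate early genes, the median of the 41 genes was 0.01, with 21 positive and 9 at an unadjusted p under 0.05, against 14.9% of all genes in that fit. Without the 3 libraries low in Xist it was 0.02, with 21 positive and 6 at that threshold, against 11.9% of all genes. With a neuronal marker score added to the model it was -0.09, with 17 positive and 6 at the threshold, against 5.42% of all genes.

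**Figure D2:**
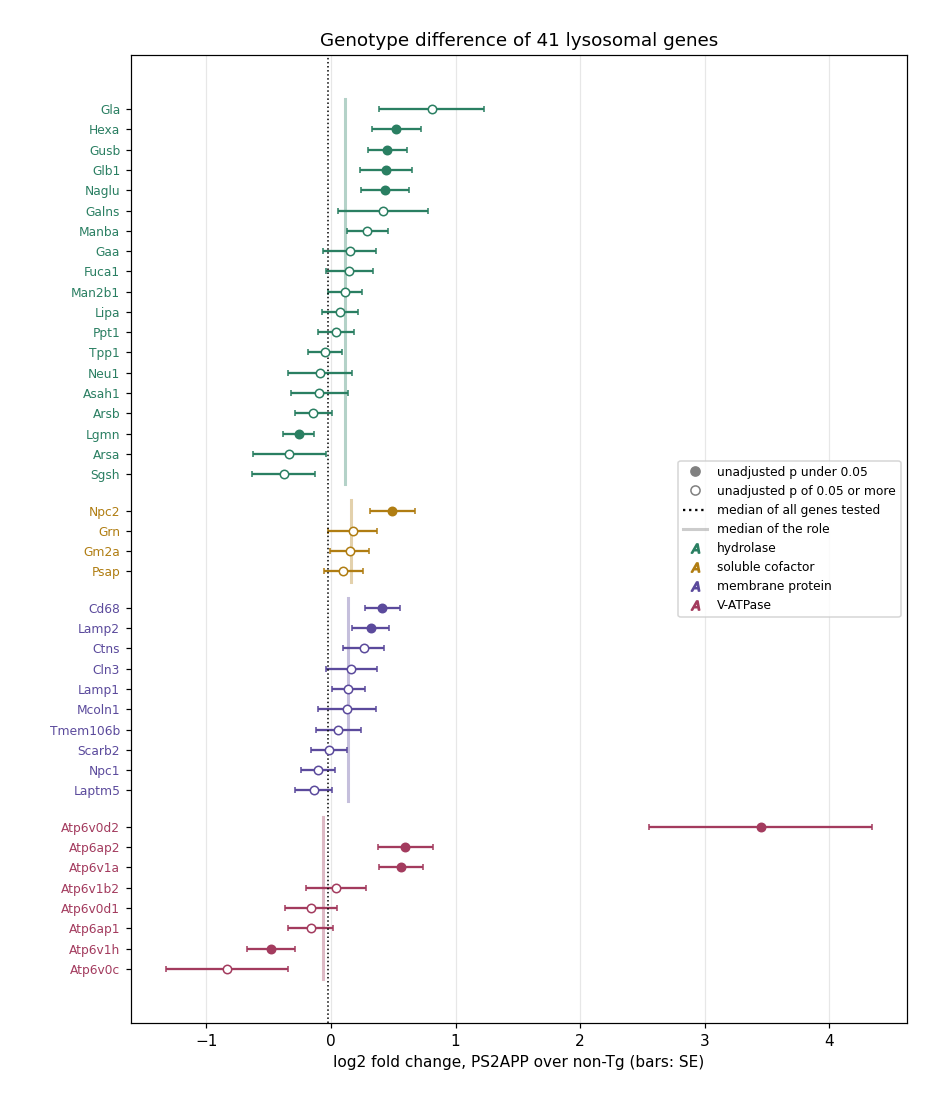
Log2 fold change of PS2APP over non-Tg (points, with SE as bars) for the 41 genes by role, from the edgeR fit with age; filled points have an unadjusted p under 0.05, the dotted line is the median of all genes tested at -0.02, and the shaded lines are the medians of the roles. Most genes lie close to 0, and Atp6v0d2 lies far to the right at 3.45.

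The smallest p-values among the hydrolases were those of Gusb, Hexa, Naglu and Lgmn. Gusb encodes β-glucuronidase, which removes glucuronic acid from glycosaminoglycans. It ran from 202 to 363 CPM with a median of 241 in PS2APP, and from 142 to 239 CPM with a median of 178 in non-Tg samples. All 9 PS2APP samples lay above the non-Tg median and 5 above every non-Tg sample. The log2 fold change was 0.45 ± 0.16 (SE), or 1.37-fold, with an unadjusted p of 0.00922 and an adjusted p of 0.209.

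Hexa, the α subunit of β-hexosaminidase, which cleaves GM2 ganglioside, ran from 313 to 644 CPM with a median of 425 in PS2APP. In non-Tg samples it ran from 209 to 438 CPM with a median of 324. In 4 of 9 PS2APP samples it exceeded every non-Tg sample, and the difference of 0.52 ± 0.20 in log2 had an adjusted p of 0.256. Naglu, which encodes the α-N-acetylglucosaminidase of heparan sulfate breakdown, ran from 63.7 to 137 CPM with a median of 83 in PS2APP and from 46.4 to 86.4 CPM with a median of 64.6 in non-Tg samples. It too exceeded every non-Tg sample in 4 PS2APP samples, with a log2 fold change of 0.43 ± 0.19 and an adjusted p of 0.381.

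Lgmn, the most abundant hydrolase, differed in the opposite direction. It ran from 1548 to 2262 CPM with a median of 1783 in PS2APP, and from 1906 to 2433 CPM with a median of 2244 in non-Tg samples. In 6 of 9 PS2APP samples it lay below every non-Tg sample. The log2 fold change of -0.26 ± 0.12 had an adjusted p of 0.415, and it was negative in every alternative run, between -0.41 and -0.11.

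The remaining 15 hydrolases had unadjusted p-values of 0.0475 or more. Glb1, the β-galactosidase gene, stood at 0.44 ± 0.21 in log2 and the low Gla at 0.81 ± 0.42. The sulfatase genes were divided: the heparan sulfamidase gene Sgsh stood at -0.38 ± 0.25, the arylsulfatase genes Arsa and Arsb at -0.33 ± 0.29 and -0.14 ± 0.15, and Galns at 0.42 ± 0.36. Lipa (the acid lipase of cholesteryl esters), Asah1 (acid ceramidase), Neu1 (sialidase), Tpp1 (tripeptidyl peptidase), Ppt1 (palmitoyl-protein thioesterase) and Man2b1 (α-mannosidase) all lay between -0.09 and 0.11. For Neu1 the signs differed by age, at 0.72 at 14 months alone and -0.51 at 15 months alone, neither called. Fuca1 (α-fucosidase), Gaa (acid α-glucosidase) and Manba (β-mannosidase) lay between 0.15 and 0.29.

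The soluble cofactors were led by Npc2, which binds cholesterol inside the lysosome and hands it to the membrane protein Npc1. Npc2 ran from 435 to 803 CPM with a median of 508 in PS2APP, and from 277 to 575 CPM with a median of 347 in non-Tg samples. Every PS2APP sample exceeded the non-Tg median, and 2 exceeded the highest non-Tg sample. Its log2 fold change was 0.49 ± 0.18 with an adjusted p of 0.241, and limma-voom gave an adjusted p of 0.0365. Npc1 itself stood at -0.10 ± 0.14, with 1 of 9 PS2APP samples above the non-Tg median.

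Grn, whose product progranulin is cleaved into granulins in the lysosome, ran from 898 to 2260 CPM with a median of 1290 in PS2APP and from 678 to 1475 CPM with a median of 1306 in non-Tg samples. The difference of 0.17 ± 0.20 had an adjusted p of 0.806. Gm2a, the activator that lifts GM2 ganglioside out of the membrane for Hexa, ran from 212 to 369 CPM with a median of 263 in PS2APP and from 190 to 302 CPM with a median of 232 in non-Tg samples. Its log2 fold change was 0.15 ± 0.16, with an adjusted p of 0.772.

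Psap, the precursor of the saposins, which assist sphingolipid hydrolases, ran from 639 to 1483 CPM with a median of 840.4 in PS2APP and from 716 to 903 CPM with a median of 827 in non-Tg samples. The medians were nearly equal, and the wide PS2APP range was set at its upper end by PS2APP 8. Its log2 fold change was 0.10 ± 0.16, with an adjusted p of 0.869. The signs of Grn, Gm2a and Psap turned in some of the alternatives.

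Among the membrane proteins, Cd68 separated the genotypes most. Cd68, or macrosialin, is a glycoprotein of late endosomes and lysosomes of phagocytes and a common histological marker of them. It ran from 917 to 1840 CPM with a median of 1165 in PS2APP, and from 855 to 1059 CPM with a median of 896 in non-Tg samples. In 8 of 9 PS2APP samples it lay above every non-Tg sample, and the exception was PS2APP 15. The log2 fold change was 0.41 ± 0.14, or 1.33-fold, with an unadjusted p of 0.00738 and an adjusted p of 0.193, and it was positive in every alternative, between 0.16 and 0.73.

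Lamp2, a membrane glycoprotein also needed for chaperone-mediated autophagy, ran from 985 to 1969 CPM with a median of 1391 in PS2APP and from 865 to 1394 CPM with a median of 1043 in non-Tg samples. Its log2 fold change was 0.32 ± 0.15 with an adjusted p of 0.395, and 4 PS2APP samples exceeded every non-Tg sample. Ctns, the cystine exporter, ran from 52.4 to 76.8 CPM with a median of 58.7 in PS2APP and from 37.5 to 63.7 CPM with a median of 50.8 in non-Tg samples, a log2 fold change of 0.26 ± 0.16 with an adjusted p of 0.566.

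Lamp1, the close relative of Lamp2, ran from 997 to 1880 CPM with a median of 1274 in PS2APP and from 996 to 1276 CPM with a median of 1157 in non-Tg samples. Its difference was 0.14 ± 0.13 in log2, with an adjusted p of 0.747. The rest were near 0. Laptm5 stood at -0.14 ± 0.15, and 5 of 9 PS2APP samples lay below every non-Tg sample while PS2APP 8 lay above them. Scarb2, the receptor that carries glucocerebrosidase to the lysosome, Tmem106b, a membrane protein that acts in lysosome size and movement, Mcoln1, the calcium channel of the lysosomal membrane, and Cln3 lay between -0.02 and 0.16.

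**Figure D3:**
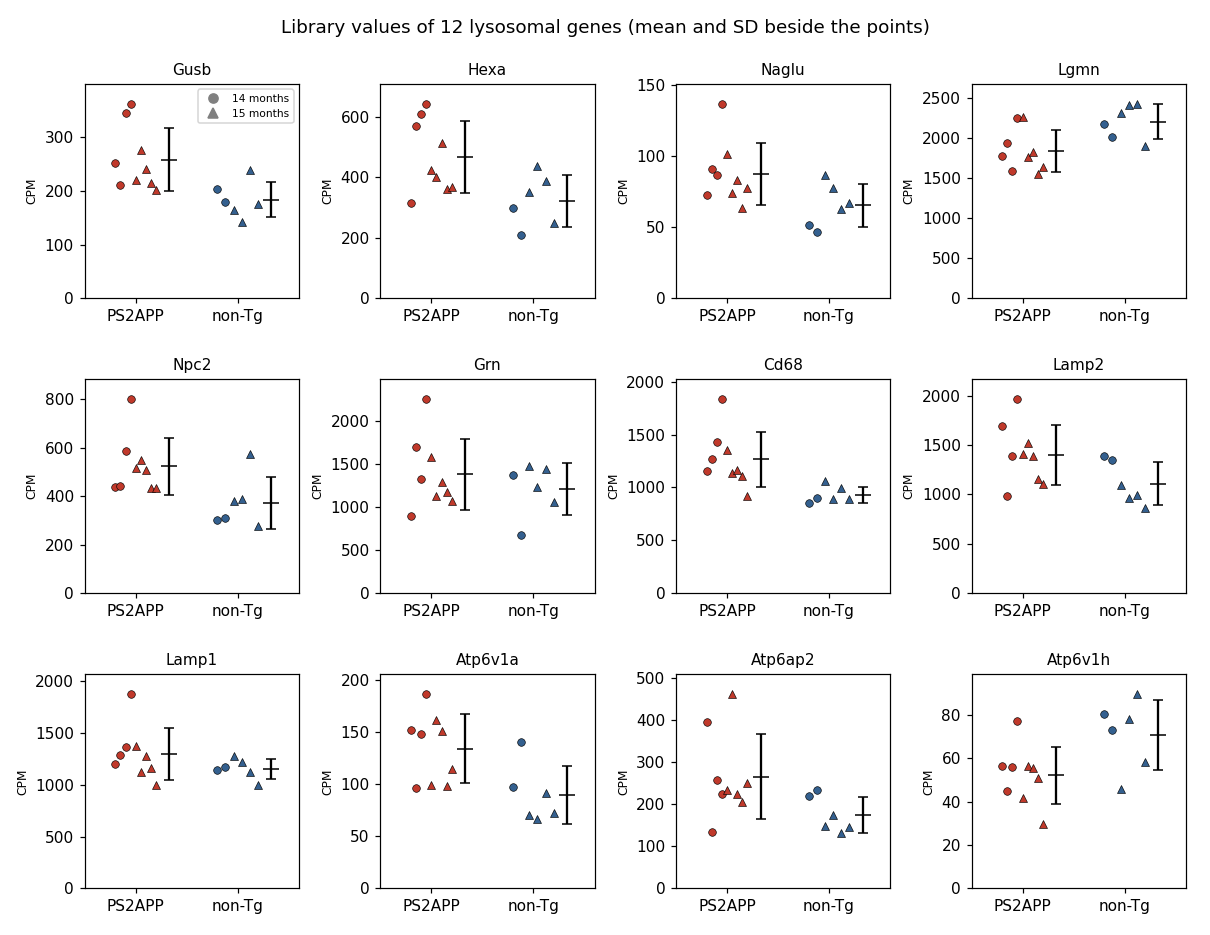
CPM of 12 lysosomal genes in every library, PS2APP (n = 9) left and non-Tg (n = 6) right, with circles for 14 and triangles for 15 months and the mean and SD beside the points. Cd68 shows the least overlap, with 8 of 9 PS2APP libraries above all non-Tg libraries, and Lgmn and Atp6v1h lie lower in PS2APP.

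The V-ATPase genes did not share a direction. Atp6v1a encodes the subunit of the cytosolic V1 sector that hydrolyses ATP. It ran from 95.9 to 187 CPM with a median of 148 in PS2APP and from 66.4 to 141 CPM with a median of 81.9 in non-Tg samples. All 9 PS2APP samples exceeded the non-Tg median and 5 exceeded every non-Tg sample, with a log2 fold change of 0.56 ± 0.18, or 1.48-fold, and an adjusted p of 0.164.

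Atp6ap2, an accessory subunit that also serves as the (pro)renin receptor, ran from 133 to 463 CPM with a median of 234 in PS2APP and from 131 to 235 CPM with a median of 160.3 in non-Tg samples. Its log2 fold change was 0.60 ± 0.22 with an adjusted p of 0.247, and 4 PS2APP samples exceeded every non-Tg sample. Atp6v1h, the V1 subunit that regulates coupling of the sectors, ran from 29.7 to 77.0 CPM with a median of 55.6 in PS2APP and from 45.6 to 89.7 CPM with a median of 75.5 in non-Tg samples. Here 8 of 9 PS2APP samples lay below the non-Tg median, and the log2 fold change of -0.48 ± 0.19 had an adjusted p of 0.293.

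The catalytic-sector subunit gene Atp6v1b2 stood at 0.04 ± 0.24, Atp6ap1 at -0.16 ± 0.18 and the low Atp6v0c at -0.83 ± 0.49, with adjusted p-values of 0.978, 0.799 and 0.534. So the V1 genes Atp6v1a and Atp6v1h, whose products sit in the same sector, had opposite signs in all alternatives run, between 0.32 and 0.75 for Atp6v1a and between -0.59 and -0.34 for Atp6v1h.

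The largest difference of the 41 genes was in the d subunit, which links the membrane sector of the pump to its stalk. A pair of genes encodes it: Atp6v0d1, which is expressed in most tissues, and Atp6v0d2, known in mice from osteoclasts, kidney and some macrophages. In the PS2APP libraries Atp6v0d2 had 39, 12, 188 and 117 reads at 14 months (PS2APP 3, 4, 6 and 8) and 46, 30, 38, 42 and 47 reads at 15 months (PS2APP 1, 7, 10, 14 and 15). In the non-Tg libraries it had 3 and 0 reads at 14 months (non-Tg 5 and 13) and 0, 36, 0 and 1 reads at 15 months (non-Tg 2, 9, 11 and 12). PS2APP samples held 559 reads in all and non-Tg samples 40, of which 36 were in non-Tg 9. The gene passed the filter on low counts through its reads in the PS2APP libraries. For the libraries with no read, 3 reads correspond to between 0.394 and 0.619 CPM, an upper limit for counting error alone.

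On the CPM scale Atp6v0d2 ran from 1.72 to 31.0 with a median of 9.58 in PS2APP and from 0 to 4.5 with a median of 0.0771 in non-Tg samples. All PS2APP samples but PS2APP 4 lay above every non-Tg sample. The log2 fold change was 3.45 ± 0.89, or 10.9-fold, with an unadjusted p of 0.000863 and an adjusted p of 0.0653 in edgeR, so it missed the threshold. Over the alternatives the adjusted p ran from 9.48e-08 to 0.856. It was 3.8e-04 without non-Tg 9, where the log2 fold change was 6.04, and 0.0470 without PS2APP 4. Non-Tg 9 also held the highest summed choroid plexus and oligodendrocyte markers of any library, at 414 and 780.0 CPM, and 10081 CPM of immediate early genes. The part of these in its Atp6v0d2 reads was not tested.

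Atp6v0d1 ran from 69.7 to 134 CPM with a median of 104 in PS2APP and from 73.4 to 221 CPM with a median of 101 in non-Tg samples, a log2 fold change of -0.16 ± 0.21 with an adjusted p of 0.837. Its highest library was non-Tg 11, without which the log2 fold change was 0.07.

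As a share of the summed RPKM of the d subunit genes, Atp6v0d2 made up 6.79% ± 4.73 (SD, n = 9) in PS2APP and 0.591% ± 1.08 (SD, n = 6) in non-Tg samples. The PS2APP shares ran from 1.06% in PS2APP 4 to 17% in PS2APP 6, and the non-Tg shares from 0% to 2.72% in non-Tg 9. The difference of 6.20 percentage points had p = 0.000799 in an exact two-sided permutation test over 5005 splits, and it does not depend on library scaling. The share rests on the same Atp6v0d2 reads as the edgeR fit, so it is not a result apart from that fit. That p is unadjusted, and the share was chosen with earlier results of these data known. At 15 months alone the difference was 4.82 points (exact permutation p = 0.0159), and at 14 months alone 8.01 points (p = 0.133). Each p is the smallest that its samples can give, 5 against 4 at 15 months and 4 against 2 at 14 months.

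**Figure D4:**
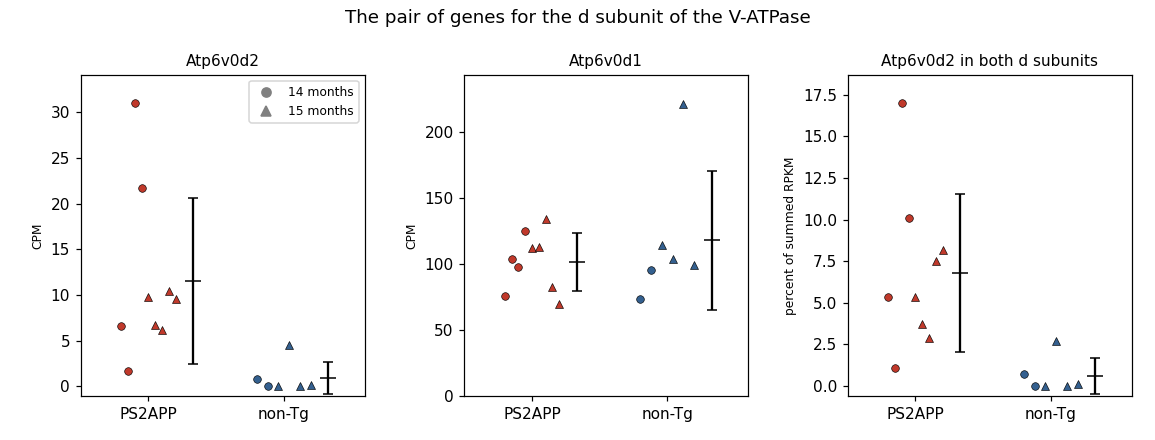
Atp6v0d2 CPM, Atp6v0d1 CPM and the share of Atp6v0d2 in the summed RPKM of both genes (percent), in every library of PS2APP (n = 9) and non-Tg (n = 6), with circles for 14 and triangles for 15 months and the mean and SD beside the points. Atp6v0d2 lies at 1.72 CPM or more in all PS2APP libraries, non-Tg 9 at 4.5 CPM stands above the other non-Tg libraries, and Atp6v0d1 overlaps throughout.

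Together the 41 genes took up 1.88% ± 0.281 of a library's reads in PS2APP (SD, n = 9) and 1.77% ± 0.162 in non-Tg samples (SD, n = 6). The PS2APP shares ran from 1.58% to 2.53% and the non-Tg shares from 1.5% to 1.98%, and the widest 95% Wilson interval of a library was 0.0275 points, so the spread between libraries was far wider than counting error. Membrane protein genes held 0.775% ± 0.125 in PS2APP and 0.716% ± 0.0840 in non-Tg samples. Hydrolase genes held 0.688% ± 0.0789 in PS2APP and 0.687% ± 0.0720 in non-Tg samples, cofactor genes 0.307% ± 0.0736 in PS2APP and 0.262% ± 0.0392 in non-Tg samples, and V-ATPase genes 0.110% ± 0.0144 in PS2APP and 0.103% ± 0.0123 in non-Tg samples.

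Some libraries were high or low across many of the genes at once, as the map of all libraries shows. PS2APP 8, a 14-month library, had the highest CPM of its group in 26 of the 41 genes and the lowest in 0. PS2APP 15 had the lowest in 14. Of the non-Tg libraries, non-Tg 11 was highest in 15 genes and non-Tg 9 lowest in 13. PS2APP 8 also had the lowest neuronal marker sum of all libraries, at 75.7 CPM, and 33419 CPM of microglial markers, and their part in its lysosomal values was not tested. Without PS2APP 8 the median log2 fold change of the 41 genes was 0.08, with 26 positive. Over the fits with 1 sample removed that median lay between 0.042, without non-Tg 13, and 0.18, without non-Tg 11.

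**Figure D5:**
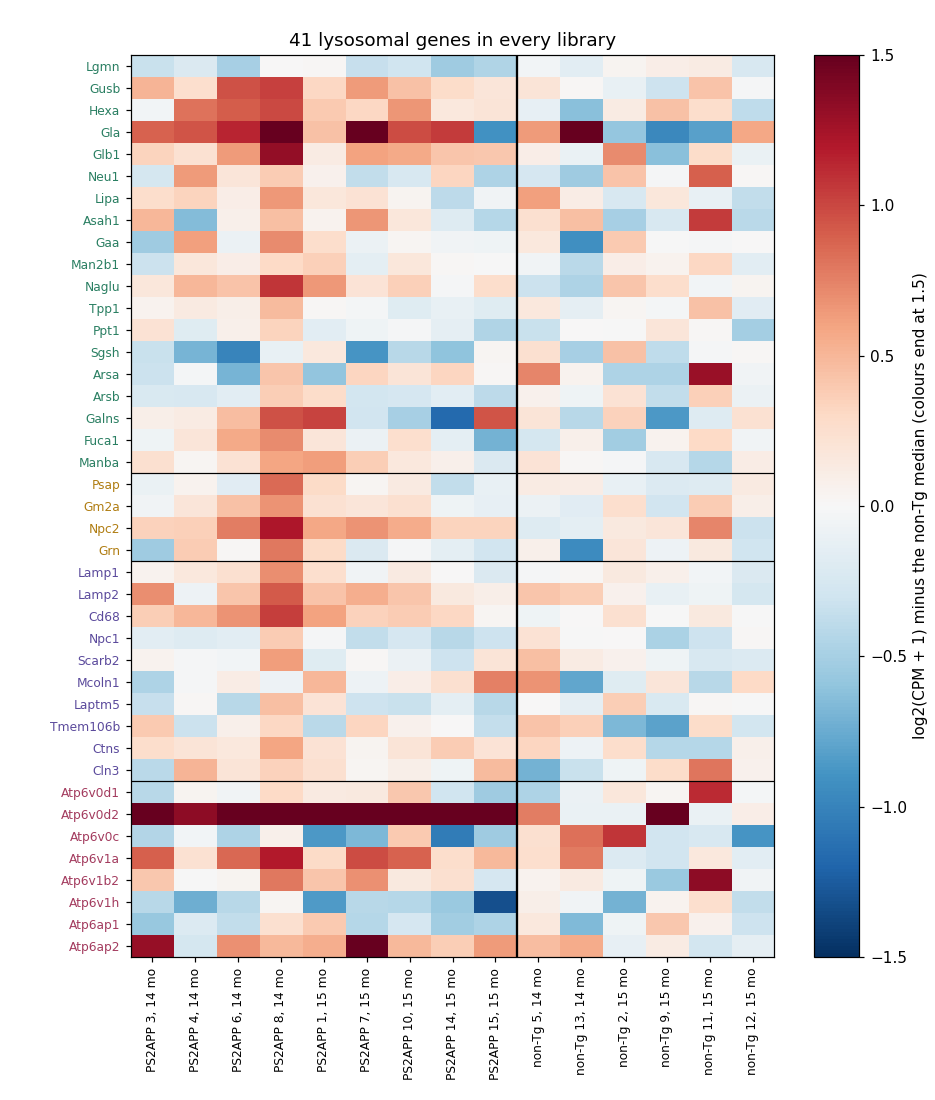
Log2(CPM + 1) of the 41 genes in each library minus the median of the 6 non-Tg libraries (colours end at 1.5 on either side), with PS2APP left of the line and non-Tg right of it. PS2APP 8 is above the non-Tg median in nearly all rows, and the Atp6v0d2 row is high in all 9 PS2APP libraries and in non-Tg 9.

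None of the 41 genes passed the edgeR test for age. Between 15 and 14 months, with genotype in the model, 0 of the 41 genes and 0 of all genes were called (0.00%), and 6 of the 41 had an unadjusted p under 0.05, against 7.93% of all genes. The smallest p-values were those of Lipa, at -0.40 ± 0.14 in log2 for 15 over 14 months (adjusted p = 0.573), Gla and Atp6v1a. At 15 months Lipa averaged 225 ± 35.6 CPM in PS2APP (SD, n = 5) and 205 ± 33.6 CPM in non-Tg samples (n = 4). At 14 months it averaged 285 ± 46.9 CPM in PS2APP (n = 4) and 292 ± 71.2 CPM in non-Tg samples (n = 2).

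The interaction of genotype with age called 0 of the 41 genes and 0 of all genes, and 4 of the 41 had an unadjusted p under 0.05, against 7.41% of all genes. Neu1, Naglu and Hexa had the smallest p-values. Naglu averaged 80.0 ± 14.0 CPM in PS2APP and 73.4 ± 10.9 CPM in non-Tg samples at 15 months, and 96.9 ± 27.9 CPM in PS2APP and 49.0 ± 3.67 CPM in non-Tg samples at 14 months. Hexa averaged 414 ± 60.8 CPM in PS2APP and 357 ± 80.0 CPM in non-Tg samples at 15 months, and 534 ± 150.4 CPM in PS2APP and 253 ± 62.2 CPM in non-Tg samples at 14 months. The lowest adjusted p of the interaction was 0.659, and the median of the 41 genes within an age was -0.01 at 15 months and 0.21 at 14 months, where there were only 2 non-Tg samples.

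Other genes of the lysosome were read from the same fit to place these 41. Of the 11 cathepsins tested, 1 was called, Ctsl, a cysteine protease, which rose to 1209 ± 418 CPM in PS2APP (SD, n = 9), against 642 ± 184 CPM in non-Tg samples (n = 6). Its log2 fold change was 0.85 ± 0.21 with an adjusted p of 0.0497, close to the threshold, and it stayed under it in 6 of 15 fits with 1 sample removed. The cathepsin median was 0.13, and 4 of the 11 had an unadjusted p under 0.05, all higher in PS2APP, against 11.7% of all genes. Of 29 other lysosomal membrane protein genes tested, 1 was called, Gpnmb, a glycoprotein of late endosomes and melanosomes. It averaged 124 ± 72.6 CPM in PS2APP (SD, n = 9) and 0.789 ± 0.775 CPM in non-Tg samples (n = 6), so it passed the filter on low counts through PS2APP. Gpnmb stood 7.11 ± 0.57 higher in log2 (edgeR adjusted p = 9.06e-08), a size that rests on a non-Tg level near 0. Over the alternatives it ran from 3.03 to 7.73. The median of that list was 0.03.

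The remaining lists held 0 called genes each in edgeR. At an unadjusted p under 0.05 they held 3 of 26 further hydrolases, 1 of 12 further V-ATPase genes, 3 of 18 sorting genes and 4 of 15 regulators, against 11.7% of all genes. Among 26 further hydrolases the median was 0.05, and Galc, the galactosylceramidase of myelin lipids, had the smallest p (log2 0.76 ± 0.19, adjusted p = 0.0559, called in 9 of 30 alternatives). Among 12 further V-ATPase subunit genes the median was -0.11, and Atp6v0a2, a membrane-sector subunit gene, had the smallest p (-0.74 ± 0.23, adjusted p = 0.161). Among 18 genes of mannose 6-phosphate tagging and sorting, which routes hydrolases to the lysosome, the median was -0.03. There Gnptab, a subunit of the tagging enzyme, had the smallest p (0.64 ± 0.16, adjusted p = 0.0535, called in 5 of 30 alternatives). Among 15 regulators of lysosomal genes, the median was 0.17 with 10 positive, and Rraga, a GTPase that brings mTORC1 to the lysosome, had the smallest p (0.85 ± 0.23, adjusted p = 0.0813, called in 5 of 30 alternatives). The factors named for the E-box lay lower in PS2APP, Tfeb at -0.46 ± 0.24 and Tfe3 at -0.28 ± 0.24 (edgeR adjusted p = 0.464 and 0.709). The 4 regulators at an unadjusted p under 0.05 were all higher in PS2APP. Mitf was among them, at 0.65 ± 0.19 (edgeR adjusted p = 0.113).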

How the data were processed

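The deposited values are raw counts of uniquely aligned reads per gene model, per the file headers, and RPKM adjusted by a size factor per sample, also per the file headers; how the authors computed that factor is not stated. The submitters' processing notes name GSNAP as a tool and GRCm38 as the build. RNA came from a column kit, per the labels' protocols. Gene symbols came from RefSeq (GRCm38.p6), which matched 31049 of 36528 gene IDs and between 97.2% and 98.2% of the reads.

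Genotype was tested on the counts with edgeR 4.0.16 (R 4.3.3), after filterByExpr by genotype and TMM scaling. The quasi-likelihood fit took genotype and age as factors over all 15 samples, with Benjamini-Hochberg adjustment over 13994 genes with a threshold of 0.05. The SE is the absolute log2 fold change over the root of its F statistic. CPM are counts scaled by TMM-adjusted library sizes. RPKM served for levels and for the share of Atp6v0d2, tested with an exact permutation test (SciPy 1.17.1). On simulated counts with 200 of 13994 genes changed by genotype, 34% of 2-fold and 76% of 4-fold changes were recovered, with 7.56% false among the calls. Intervals and floors cover counting error only. Over 51 pairs of samples within a group, chi-square per degree of freedom was 9.98 or more, so each sample counted once.

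The 41 genes, the lists and the tests were chosen with earlier results of these data known. The alternatives were DESeq2 1.42.0, limma-voom (limma 3.58.1), a robust edgeR fit, RLE scaling, unscaled libraries, other filters, no age term, single ages and leaving out each sample. Chosen after seeing the data were fits without libraries that stood apart, with an immediate early or a neuronal score, and limma-trend on log2(RPKM + 1). Per role, the 4 genes with the smallest p and both d subunit genes are given in full. From each other list the called genes or the one with the smallest p are named, and the 3 smallest p for age and the interaction. Among the regulators Tfeb, Tfe3 and Mitf are named as well.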

Additional observations from a re-analysis of the deposited data

Results flagged for a closer look

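In 7 cases among the 86 sample groups examined, a library had a gap to its nearest neighbour that was large for the range of its group, where chance gives about 1 in 20. Of these, 4 concerned PS2APP 8. That library held 151.6 CPM of Glb1, 811.7 CPM of Tpp1 and 803.1 CPM of Npc2, and 2.53% of its reads lay in the 41 genes, each the highest value of the PS2APP group. In the non-Tg group, Gaa was lowest in non-Tg 13 at 47.3 CPM, Atp6v1b2 was highest in non-Tg 11 at 289.2 CPM, and the Atp6v0d2 share of the d subunit RPKM was highest in non-Tg 9 at 2.72%. Without non-Tg 9 that share differed by 6.63 percentage points between PS2APP and non-Tg, against 6.20 points with it. The other non-Tg libraries held 3, 0, 0, 0 and 1 Atp6v0d2 reads, and the gene passed the count filter through PS2APP. The exact two-sided permutation p of 0.000999 is therefore the smallest that these sample numbers allow. It is unadjusted and not a result apart from the edgeR fit.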

How the results depend on the processing

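No paired analysis was possible because replicate numbers are not shared between the genotypes. Of the 41 genes, 0 were called in the edgeR fit and 0 to 1 when a sample was left out, the 1 being Atp6v0d2 without PS2APP 4 or without non-Tg 9. It was also the 1 called with no age term, with DESeq2 and without PS2APP 1 and 4 and non-Tg 9 and 13 (high in immediate early genes). Npc2 was the 1 called with limma-voom, and without a count filter 2 were called, Atp6v0d2 and Atp6ap2; the cause was not tested. Over all genes, 165 were called, against 648 with no filter, 388 with DESeq2, 81 without the libraries low in Xist, 65 at 15 months alone, 50 at 14 months alone and 26 with the neuronal score; leaving out a sample gave 118 to 188. The summed CPM of the neuronal markers does not overlap between the genotypes, so the score and genotype are hard to tell apart. The Atp6v0d2 share kept its direction throughout, with a difference of 8.01 points at 14 months, where 6 samples cannot reach the threshold, and 4.93 to 6.92 with a sample left out.

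Signs turned for genes that were not called. Grn was -0.070 at 15 months, -0.094 without the immediate early group of 4 libraries, -0.048 without those low in Xist and -0.14 with the neuronal score. Gm2a was -0.037 at 15 months, and with the neuronal score Gm2a was -0.077, Psap -0.26 and Lamp1 -0.12. Psap was -0.040 and Atp6v0d1 0.019 in limma-voom. Atp6v0d1 was 0.29 at 14 months and -0.28 to 0.074 with a sample left out. Ctsl lost its call without PS2APP 1, 6, 7, 8 or 10, or without non-Tg 2, 5, 12 or 13, and Gpnmb was called in 15 of 15 fits with a sample left out. DESeq2 called Galc, Gnptab and Rraga, and leaving out a sample called Galc in 3 fits (PS2APP 4, non-Tg 11, non-Tg 13), Gnptab in 2 (PS2APP 14, non-Tg 11) and Rraga in 2 (PS2APP 4, PS2APP 8). The 24 genes not given in full were called in 0 of 30 alternatives, and 7 of them kept their direction in all. The simulated counts put the limit of detection above most of the differences seen, so a gene not called is not shown to be alike in both genotypes.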
